A study of Mus musculus with 28 samples.

Results

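The 44 collagen chains of the mouse were followed through the development of the peripheral nerve. The chains were taken as all protein-coding genes whose symbol is Col, a number, the letter a and a number, which gave 44 of the 41605 genes in the count table. All 44 passed the filter on low counts and were among the 17700 genes tested. The study sequenced polyadenylated RNA from 28 nerve samples of wild-type C57BL/6J mice, with 4 libraries at each of 7 stages: embryonic day (E) 13 and 17 and postnatal day (P) 1, 5, 14, 24 and 60. The design text names the embryonic stages E13.5 and E17.5. The mice carried no transgene and received no treatment, and by the study's account each stage holds samples from both sexes, although the labels do not give the sex of a library. An E13 library holds several kinds of nerve taken below the dorsal root ganglia of 2 embryos, whereas an E17 library holds the sciatic nerves of 2 embryos and a postnatal library those of 1 mouse. The labels call the tissue sciatic nerve at every stage. From E17 on, the epineurium and perineurium were peeled away by hand as far as possible, which enriched the endoneurium but need not have removed the other layers, and a comparison with E13 mixes age with the kind of nerve and the dissection, and these cannot be told apart.

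Collagens are secreted or membrane-bound trimers wound from chains built on repeated Gly-X-Y triplets. Fibril-forming types (I, II, III, V, XI, XXIV and XXVII) give tissue its tensile strength, type IV forms the network of basement membranes, and the remaining types link, decorate or anchor these structures. In nerve, every Schwann cell with its axons lies inside a basal lamina that contains type IV collagen, fibrils of types I, III and V fill the endoneurium around it, and perineurial cells and blood vessels have basement membranes of their own. Classes differ in how these triplets are arranged, although their ranges overlap. In the GRCm38 coding sequences the 9 chains of types I, II, III, V and XI have a longest run of 337 to 344 Gly-X-Y triplets, and in Col24a1 and Col27a1 it is 216 and 217. The 6 type IV chains are split into 22 to 27 runs of at least 5 triplets, none longer than 66 triplets, and in the type VI chains such runs make up 10.1 to 31.9% of the residues, a range that the multiplexins share (25.02 to 28.58%) and that lies within that of the fibril-associated chains (8.12 to 85.6%).

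Total counts ran from 13899895 to 37662780 per library. Values are given as CPM, the counts scaled to libraries of equal size with TMM factors, and compare 1 chain between stages. Levels of different chains are compared only per kilobase of exon, because long transcripts collect more reads. E13 replicates 1 and 4 stood apart in how the counts depended on GC content, with slopes of -0.93 and 0.73 on the log2 scale per 10 percentage points of GC, and P1 replicate 1 had a slope of -0.43. In bulk tissue, fewer cells of a type and less RNA per cell cannot be told apart. The 6 Schwann cell markers, all 6 of which were called higher at E17 than at E13, summed to 304 to 619.7 CPM at E13, 2435 to 2639.7 CPM at E17 and 4051 to 4500.0 CPM at P60. Without TMM factors the median log2 change of all genes became -0.33 (E17 against E13), -0.19 (P5 against P1), -0.17 (P14 against P5) and -0.22 (P60 against P1), against -0.08 to 0.00 with TMM.

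Nearly every collagen chain changed along the timeline. With edgeR's test of all stages together, 43 of 44 chains passed (adjusted p under 0.05 and stage means at least 2-fold apart), where 70.3% of all genes tested did. The exception was Col9a2, a chain of the fibril-associated type IX, whose stage means, averaged on the log scale, lay within 1.88-fold of each other and so under the minimum (2.01-fold for plain means of CPM). A chain was highest at E17 in 16 cases, at E13 in 7, at P14 and at P60 in 6 each, and at P1, P5 and P24 in 3 each. Its lowest stage was E13 in 18 cases and P60 in another 18, so that most chains were low at an end of the timeline.

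**Figure D1:**
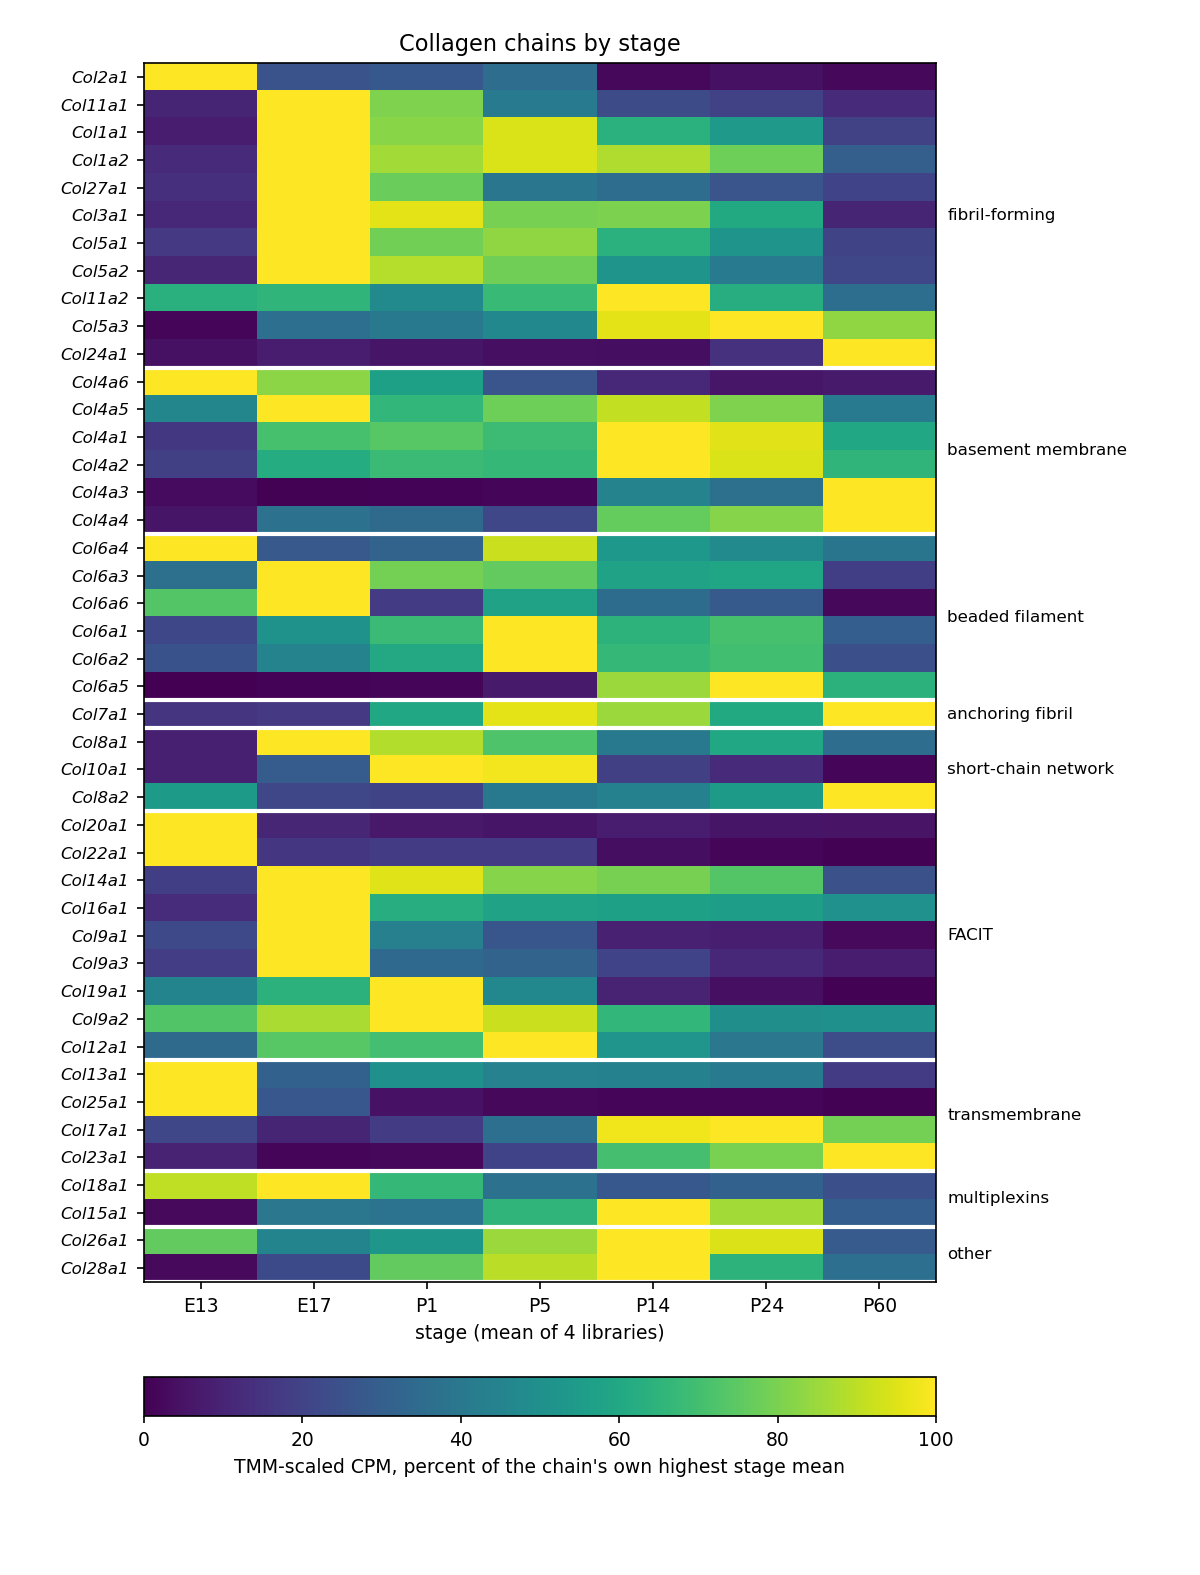
Stage means of the 44 collagen chains (rows, grouped by structural class and ordered by the stage of the maximum) at the 7 stages (columns), each as a percent of the chain's own highest stage mean of TMM-scaled CPM. Of the 11 fibril-forming chains, 7 peak at E17, while Col5a3 peaks at P24 and Col24a1 at P60.

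The comparisons between stages were uneven. From E13 to E17, 22 chains were higher and 9 lower by at least 2-fold (edgeR adjusted p under 0.05), against 14.2% higher and 21.2% lower among all genes. Of the higher chains, Col4a5, Col6a1 and Col12a1 lost their calls when library size alone set the scale. From E17 to P1, 2 chains rose (6.31% of all genes) and 4 fell (5.41%). From P1 to P5, 3 rose (4.05%) and 3 fell (1.79%), or 2 and 6 when library size alone set the scale. From P5 to P14, 6 rose (7.11%) and 6 fell (4.91%), or 4 and 8 on that scale. From P14 to P24, 1 rose (1.51%) and 0 fell by edgeR's test (1.14%). Col2a1 was a further rise with DESeq2 and with limma-voom. At an unadjusted p under 0.05, 7 of the 44 chains and 7.75% of all genes were lower in that interval. As falls, limma-voom called 1 chain (Col22a1) and DESeq2 called 0. From P24 to P60, 2 rose (2.55%) and 15 fell (3.41%). Over the whole postnatal interval, from P1 to P60, 8 chains rose (20.3%) and 25 fell (15.2%). Markers of other cells moved over the same interval: all 4 adipocyte markers were called higher (sums of 0.124 to 0.219 CPM at P1 and 147 to 416 CPM at P60), as were 4 of 5 pericyte and smooth muscle markers (76.7 to 98.5 CPM and 336 to 405 CPM), 3 of 5 endothelial markers (154 to 175 CPM and 371 to 407 CPM), all 4 perineurial and all 4 epineurial markers. The 2 proliferation markers went down, with sums of 825 to 1166 CPM at P1 and 2.55 to 4.14 CPM at P60. The 6 Schwann cell markers summed to 3467 to 3802 CPM at P1 and 4051 to 4500 CPM at P60. What part these cells had in the changes of the chains was not tested. The median log2 change of the 44 chains was 1.17 between E13 and E17, where that of all genes was -0.08, and -1.31 between P1 and P60, where that of all genes was -0.02.

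**Figure D2:**
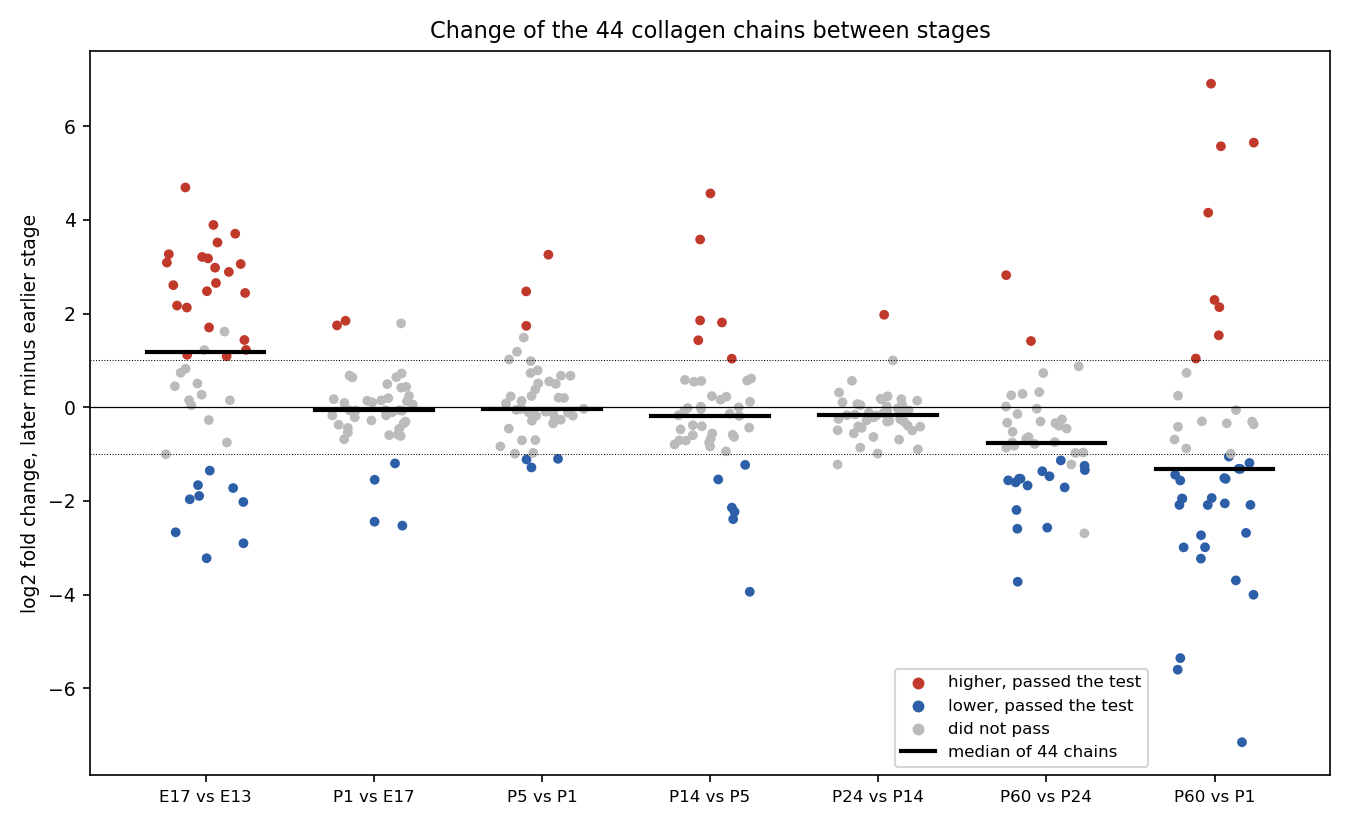
Log2 fold change of each of the 44 chains (points) in the 6 adjacent comparisons and in P60 against P1, on edgeR estimates, with the median of the 44 as a black bar and dotted lines at a 2-fold change. Points pass the test in red (higher) or blue (lower). The median bars sit near 0 in every comparison from P1 to P24 and below -0.7 in both comparisons with P60.

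Collagen messages took up a large and then shrinking share of the libraries. Per length of union exon, the 44 chains made up 0.305 ± 0.114% of all length-scaled counts at E13 and 1.72 ± 0.0626% at E17. For shares, CPM and ratios, here and below, the value after ± is the SD of 4 libraries. For log2 fold changes it is the standard error from the edgeR fit. The postnatal shares were 1.40 ± 0.213% (P1), 1.17 ± 0.119% (P5), 0.977 ± 0.124% (P14), 0.897 ± 0.171% (P24) and 0.446 ± 0.0223% (P60). The libraries of E17 (1.67 to 1.80%) did not overlap with those of P1 (1.13 to 1.59%), and those of P24 (0.643 to 1.02%) did not overlap with those of P60 (0.415 to 0.463%). Fibril-forming chains supplied 72.8% of the collagen share at E17 and 43.6% at P60. The part of the type IV chains went from 11.1% to 28.5% over the same stages, and that of the transmembrane chains from 0.0521% to 7.01%. Col3a1 had the highest length-scaled level at every stage from E13 to P24. At P60 the order depended on the length used, with Col4a1 first on union exons (227 CPM per kilobase, Col3a1 118) and Col1a2 first on the longest transcript (381, Col4a1 256 and Col3a1 208).

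**Figure D3:**
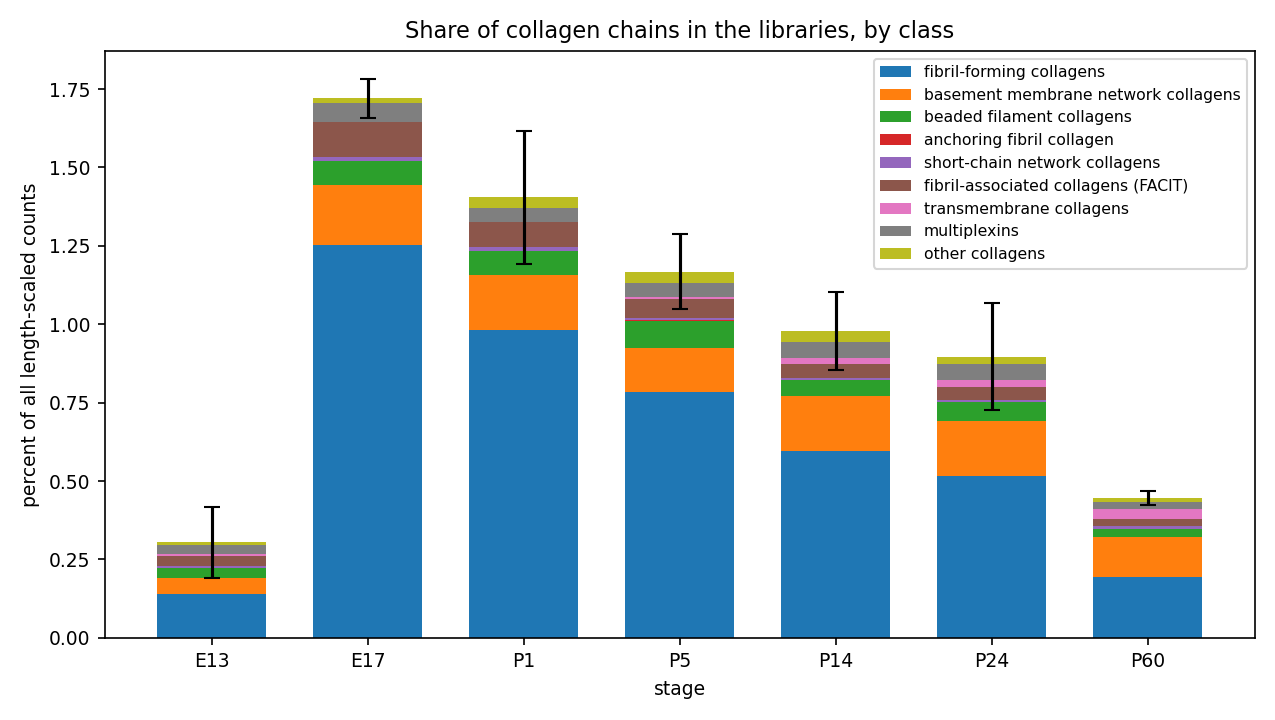
Percent of all length-scaled counts (union exon length) taken by collagen chains at the 7 stages, stacked by structural class, as means of 4 libraries with the SD of the total as error bars. The total is highest at E17 with 1.72% and lowest at E13 with 0.305%.

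The chains of the abundant fibrils were high from E17 to P24 and then fell. Of the 11 fibril-forming chains, 8 were higher (14.2% of all genes) and 1 was lower (21.2%) at E17 than at E13. From P24 to P60, 5 fell (3.41%) and 1 rose (2.55%), when their median log2 change was -0.97. Col3a1 (chr1:45311538-45349706, plus strand), the only chain of type III collagen, read 982, 1675, 1169 and 1189.6 CPM in E13 replicates 1 to 4. It read 11103, 10759, 11934 and 11552 CPM at E17 and 9109, 10491, 11814 and 12036 CPM at P1. All E17 libraries were above all E13 libraries (log2 fold change 3.18 ± 0.22, edgeR adjusted p = 1.44e-12). At P5 the 4 libraries read 9305, 9159, 9989 and 7668 CPM, at P14 8735, 8833, 7623 and 11289.9 CPM, at P24 7118, 3819.8, 8083 and 8465 CPM and at P60 1436, 1375, 821 and 995 CPM. The P60 libraries were near the level of E13, which they overlapped, and below all P24 libraries, of which replicate 2 was the lowest (log2 fold change -2.57 ± 0.21, edgeR adjusted p = 1.76e-09). The annotated microRNA gene Gm47302 lies within an exon of Col3a1 on the same strand and had 116338 counts over all libraries, against 4652881 for Col3a1.

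Type I collagen, the heterotrimer of Col1a1 and Col1a2, was also high from E17 to P24 and fell to P60. Col1a1 went from 370.1 ± 174 CPM at E13 to 4822 ± 466 at E17 (log2 fold change 3.70 ± 0.29, edgeR adjusted p = 1.50e-11) and from 2594 ± 639 at P24 to 934 ± 112 at P60 (log2 fold change -1.47 ± 0.26, edgeR adjusted p = 1.98e-04). Col1a2 went from 5253 ± 566 to 2038 ± 234 CPM over the last interval (log2 fold change -1.37 ± 0.15, edgeR adjusted p = 2.97e-07). The spread of Col1a1 at P1 came largely from replicate 1, at 2275 CPM where the others read 3850.4 to 4868 CPM, and this is the library with the GC slope of -0.43. Whether the slope has a part in that value was not tested. With a GC trend offset in the fit, the chains called between E17 and P1 were the same with the addition of Col10a1, a chain of hypertrophic cartilage. Col10a1 was also added with limma-voom, with a minimum of 1 CPM in 4 libraries and with the compared stages only. It was added as well without the E13 stage, without E17 replicate 4 and without P1 replicate 1.

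The 3 chains of type V collagen, which is built into type I fibrils and limits their thickness, parted from one another. Col5a1 and Col5a2 were highest at E17 (1399 ± 71.6 and 1545 ± 60.2 CPM) and were lower at P60 than at P1 (log2 fold change of P60 against P1 -1.95 ± 0.19, edgeR adjusted p = 1.76e-09, and log2 fold change of P60 against P1 -2.05 ± 0.14, edgeR adjusted p = 1.16e-12). Col5a3 (chr9:20770050-20815067, minus strand), the chain known from type V collagen made by Schwann cells, rose over the same interval (log2 fold change of P60 against P1 1.04 ± 0.22, edgeR adjusted p = 2.43e-04). This call was lost with library size alone as the scale, with limma-voom, with no filter on low counts and without P1 replicate 1.

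Col5a3 read 5.30, 18.5, 8.88 and 13.6 CPM in E13 replicates 1 to 4 and 291, 276, 318 and 306 CPM at E17, the largest log2 rise of the 44 chains in that comparison (log2 fold change 4.69 ± 0.26, edgeR adjusted p = 2.10e-14). It then read 214, 327, 409 and 369.5 CPM at P1 and 408, 368, 437 and 308 CPM at P5. The libraries of E17, P1 and P5 overlapped from each stage to the next. At P14 it read 656, 795, 854 and 816 CPM, above every P5 library (log2 fold change 1.04 ± 0.22, edgeR adjusted p = 8.01e-04), although its call was lost when library size alone set the scale and when P5 replicate 4 or P14 replicate 3 was left out. It read 933, 732, 801 and 781 CPM at P24 and 621, 727, 653 and 712 CPM at P60. The length-scaled ratio of Col5a3 to Col5a1 was 0.0609 ± 0.0111 at E13, 0.406 ± 0.0232 at P5, 1.10 ± 0.139 at P14 and 2.98 ± 0.178 at P60, so that at P60 every library had more Col5a3 than Col5a1 per kilobase (lowest ratio 2.82). On the longest transcript the P60 ratio was 3.28.

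Col11a1, which shares the nucleating role of type V, peaked at 683 ± 37.0 CPM at E17 and stood lower at each stage after it, with no overlap between the libraries of P1, P5 and P14, to reach 83.1 ± 14.2 CPM (log2 fold change of P60 against P1 -2.73 ± 0.21, edgeR adjusted p = 6.90e-12). Col27a1 stood at 214 ± 22.7 CPM in E17 libraries and at 42.7 ± 4.38 CPM in those of P60 (log2 fold change of P60 against P1 -1.95 ± 0.25, edgeR adjusted p = 1.75e-07). Col11a2 stayed at or under 14.8 CPM as a stage mean and passed in no pairwise comparison. Col2a1 (chr15:97975602-98004695, minus strand), the fibril chain of cartilage, read 61.6, 247, 166 and 188 CPM at E13 and 37.3, 45.9, 47.0 and 39.3 CPM at E17. It read 38.1, 44.4, 42.8 and 57.0 CPM at P1, 68.7, 53.4, 59.7 and 55.1 CPM at P5 and 2.81, 3.28, 3.84 and 5.36 CPM at P14 (log2 fold change -3.94 ± 0.31, edgeR adjusted p = 1.63e-10), with a wide gap between the libraries. Its later values were 6.39, 6.96, 8.94 and 8.43 CPM at P24 and 4.46, 4.64, 1.87 and 3.20 CPM at P60 (log2 fold change of P60 against P1 -3.70 ± 0.31, edgeR adjusted p = 6.68e-11). Of the 8 cartilage markers, Acan averaged 1.87 CPM at P5 and 0.226 CPM at P14, and Matn1, Matn3, Snorc and Ucma were each under 0.1 CPM on average at both of these stages. The list's sum of 27.9 to 30.4 CPM at P5 and 54.4 to 74.3 CPM at P14 came mostly from Matn4 and Cnmd. The study also used Col2a1, with Sox9, as a marker of endoneurial fibroblast-like cells. Its text does not name Osr2 and Wif1, the other genes listed for these cells here. Sox9, a transcription factor, read 10.7 ± 1.34 CPM at P5 and 8.19 ± 1.92 CPM at P14 (edgeR adjusted p = 0.15). Osr2, another transcription factor, read 12.5 ± 1.69 and 8.43 ± 1.88 CPM (edgeR adjusted p = 0.058), and Wif1 was under 0.1 CPM on average at both stages.

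Col24a1 (chr3:145292472-145552011, plus strand), a fibril chain with a shortened and interrupted helix known from developing bone, rose late. It read 5.10, 8.56, 2.96 and 1.53 CPM at E13, 8.14, 8.13, 7.06 and 7.16 CPM at E17 and 5.39, 4.66, 6.38 and 5.68 CPM at P1. It read 3.67, 4.10, 5.39 and 3.01 CPM at P5 and 3.12, 3.50, 4.08 and 3.46 CPM at P14. The 4 P24 libraries, at 14.7, 14.4, 13.4 and 13.4 CPM, were all above those of P14 (log2 fold change 1.97 ± 0.28, edgeR adjusted p = 3.14e-05), and the 4 P60 libraries, at 94.8, 97.5, 107 and 95.1 CPM, were all above those of P24 (log2 fold change 2.82 ± 0.27, edgeR adjusted p = 1.77e-08). It was the one chain that passed in both of these comparisons in the main edgeR fit. The bone markers Bglap, Ibsp, Sp7 and Dmp1 together summed to 0.494 to 1.05 CPM at P24 and 0.145 to 0.808 CPM at P60.

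**Figure D4:**
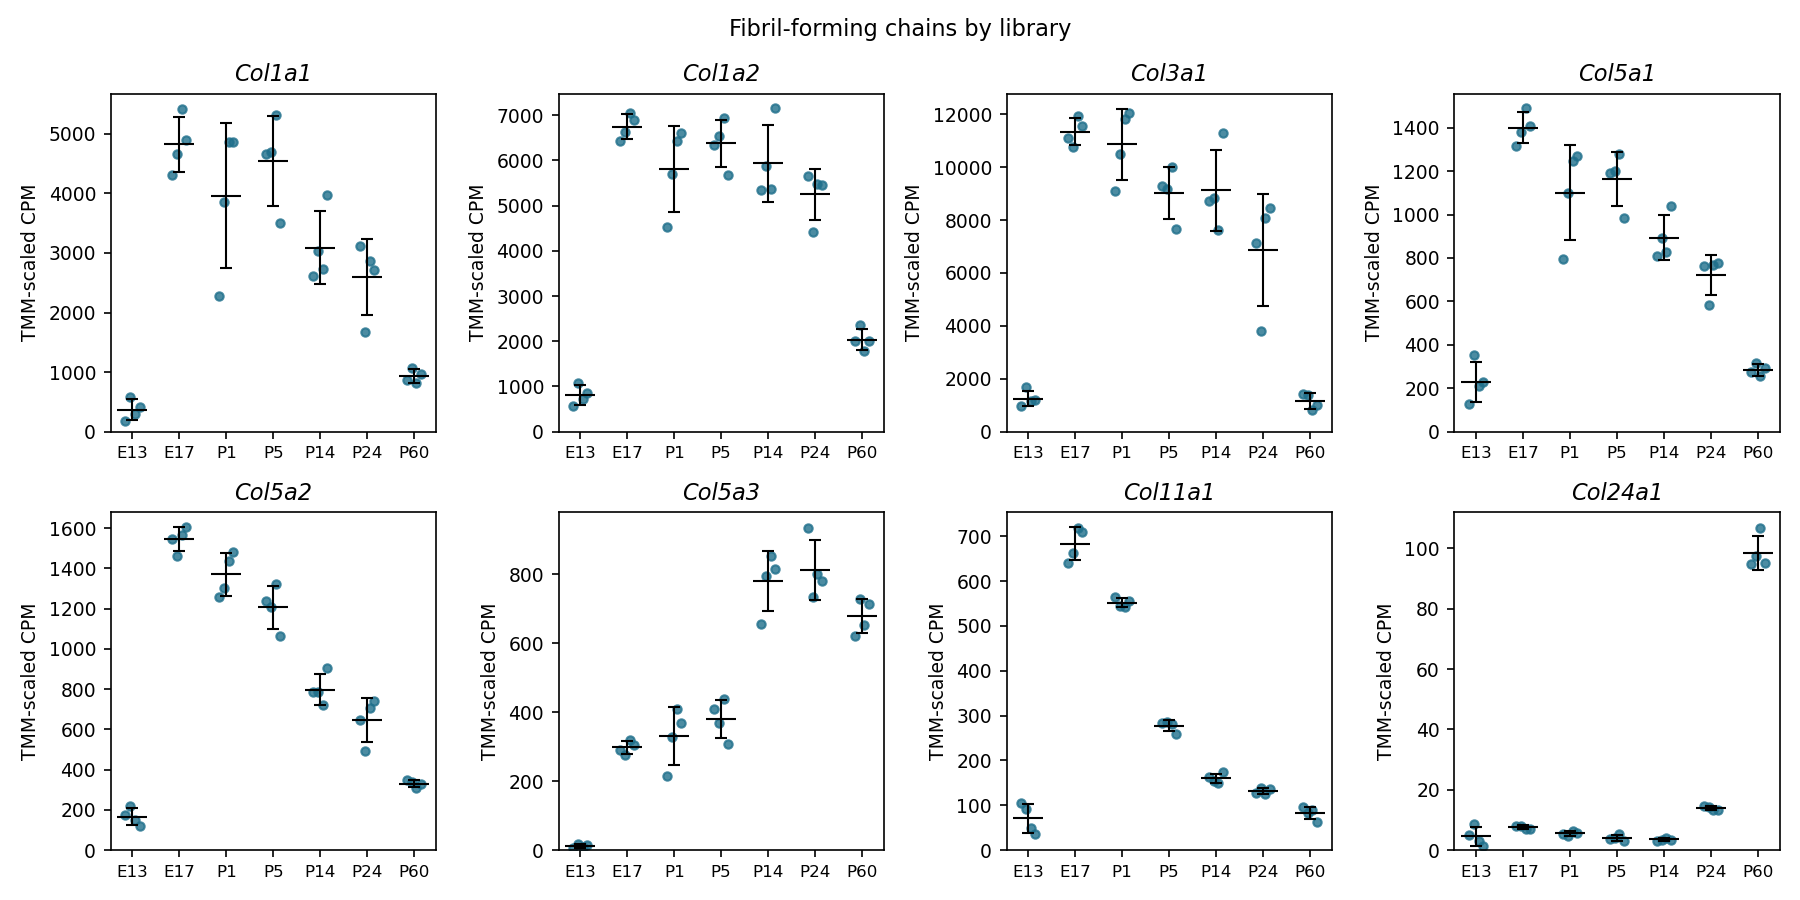
TMM-scaled CPM of 8 fibril-forming chains in each of the 28 libraries (points) by stage, with the mean of 4 libraries and its SD, on linear axes from 0 that differ between panels. Type I and III chains and Col5a1 and Col5a2 fall to P60, Col5a3 climbs at P14, and Col24a1 reaches 94.8 to 107 CPM at P60 alone.

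Type IV chains are arranged in the genome as head-to-head pairs, and the pairs differed in whether their members moved together. Col4a1 and Col4a2, which make the basement membrane trimer found in nearly all tissues, start within 22 bases of overlap on chromosome 8. The starts of Col4a4 and Col4a3 lie 71 bases apart on chromosome 1, and those of Col4a6 and Col4a5 lie 1308 bases apart on the X chromosome. The stretch that separates Col4a4 from Col4a3 and the 120 bases before the starts of Col4a6 and Col4a5 are shown to set these arrangements beside the expression values (RefSeq, GRCm38.p6, each on the strand of the first-named gene, 5′ to 3′). Capitals mark a GC box.
Col4a4 to Col4a3, chr1:82586850-82586920, minus strand: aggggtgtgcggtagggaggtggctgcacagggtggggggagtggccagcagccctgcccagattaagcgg
Col4a6, chrX:141474077-141474196, minus strand: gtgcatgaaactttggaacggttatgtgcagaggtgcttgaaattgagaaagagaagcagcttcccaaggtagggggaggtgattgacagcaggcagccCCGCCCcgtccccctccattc
Col4a5, chrX:141475265-141475384, plus strand: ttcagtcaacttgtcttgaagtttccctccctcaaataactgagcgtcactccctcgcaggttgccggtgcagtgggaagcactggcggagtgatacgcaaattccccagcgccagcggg
A CCAAT box (CCAAT or ATTGG), a GC box (GGGCGG or CCGCCC) and a TATA box (TATAAA or TTTATA) were searched on both strands. The only match was the GC box before Col4a6, which begins 21 bases before the start. Windows of 120 bases hold a GC box in 26.5%, a CCAAT box in 21.3% and a TATA box in 6.34% of the 32851 promoters in the table, and windows of 71 bases in 20.7%, 13.3% and 4.41%.

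Col4a1 (chr8:11198423-11312826, minus strand) and Col4a2 rose together between E13 and E17 and had no 2-fold change thereafter. Col4a1 read 242, 667, 449 and 486 CPM at E13, 1844, 1950.5, 2211 and 2054 CPM at E17 and 1314, 2192, 2409.7 and 2469.9 CPM at P1. All E17 libraries were above those of E13 (log2 fold change 2.13 ± 0.20, edgeR adjusted p = 6.23e-10). It read 1964, 1892, 2189 and 1741 CPM at P5, 2629.5, 2838, 2963 and 2922 CPM at P14, 2886, 2637, 2752 and 2568 CPM at P24 and 1546, 1856, 1702 and 1678 CPM at P60. The P14 libraries were above those of P5 and the P60 libraries below those of P24, with log2 changes of 0.54 and -0.68 that did not reach 2-fold. Col4a2 gave 318 ± 130.1 CPM at E13 and 1036 to 1669 CPM as stage means from E17 to P60.

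Col4a3 and Col4a4, which with Col4a5 form the trimer known from the glomerular basement membrane of the kidney, both rose at P14. Col4a3 (chr1:82586921-82722059, plus strand) read 0.927, 0.606, 0.397 and 0.105 CPM at E13 and was at 0 to 8 counts per library at E17 and P1. It read 0.333, 0.201, 0.385 and 0.367 CPM at P5 and 10.9, 4.58, 5.23 and 9.57 CPM at P14, with no overlap (log2 fold change 4.56 ± 0.59, edgeR adjusted p = 9.11e-07). It read 3.94, 1.94, 8.54 and 10.7 CPM at P24 and 28.7, 5.44, 14.9 and 18.6 CPM at P60. The P24 and P60 libraries overlapped, and the rise between these stages (log2 fold change 1.41 ± 0.46, edgeR adjusted p = 0.035) was lost without P24 replicate 1 or 2 or P60 replicate 1, 3 or 4, with log2 fold changes of 1.03 to 1.80 over the 8 libraries left out in turn. From P1 to P60 Col4a3 had the largest rise of the 44 chains (log2 fold change of P60 against P1 6.91 ± 0.66, edgeR adjusted p = 7.80e-10), from 2 to 8 counts in a P1 library. Col4a4 was 6.11 ± 0.801 CPM at P5 and 22.1 ± 6.04 CPM at P14 (log2 fold change 1.85 ± 0.28, edgeR adjusted p = 1.25e-05), but unlike Col4a3 it was already present at E17 with 10.8 ± 1.17 CPM (log2 fold change 2.65 ± 0.31, edgeR adjusted p = 3.77e-08). The length-scaled ratio of Col4a3 to Col4a4 was accordingly 0.0131 ± 0.00892 at E17 and 0.354 ± 0.0594 at P14. Between E13 and E17 the pair went opposite ways, with Col4a3 called lower and Col4a4 higher. The Col4a3 call rested on at most 4 counts in an E17 library. It was lost with limma-voom, with no filter on low counts and without E13 replicate 1 or 2 or E17 replicate 1, 2 or 3. Col4a3 shares 563 exon bases with the opposite-strand transcript C430014B12Rik, which had 82 counts in all.

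The members of the third pair moved apart. Col4a6 (chrX:141165403-141474076, minus strand) was at 10.7, 10.7, 10.7 and 11.6 CPM at E13, 7.42, 8.13, 8.54 and 12.1 CPM at E17 and 5.43, 6.12, 7.22 and 6.02 CPM at P1. It was at 2.42, 2.66, 2.82 and 3.52 CPM at P5 and 1.43, 0.735, 1.63 and 1.03 CPM at P14. Each of these 2 steps passed, with no overlap of libraries (log2 fold change -1.11 ± 0.25, edgeR adjusted p = 0.0020, and log2 fold change -1.23 ± 0.27, edgeR adjusted p = 0.0010). It ended at 0.867, 0.314, 0.346 and 1.05 CPM at P24 and 1.17, 0.508, 0.622 and 0.816 CPM at P60. Col4a5 was 53.9 ± 5.29 CPM at P1, 73.9 ± 4.01 at P14 and 33.4 ± 7.83 at P60, and none of its postnatal comparisons reached 2-fold. The length-scaled ratio of Col4a6 to Col4a5 went from 0.253 ± 0.0546 at E13 to 0.0139 ± 0.00515 at P14.

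**Figure D5:**
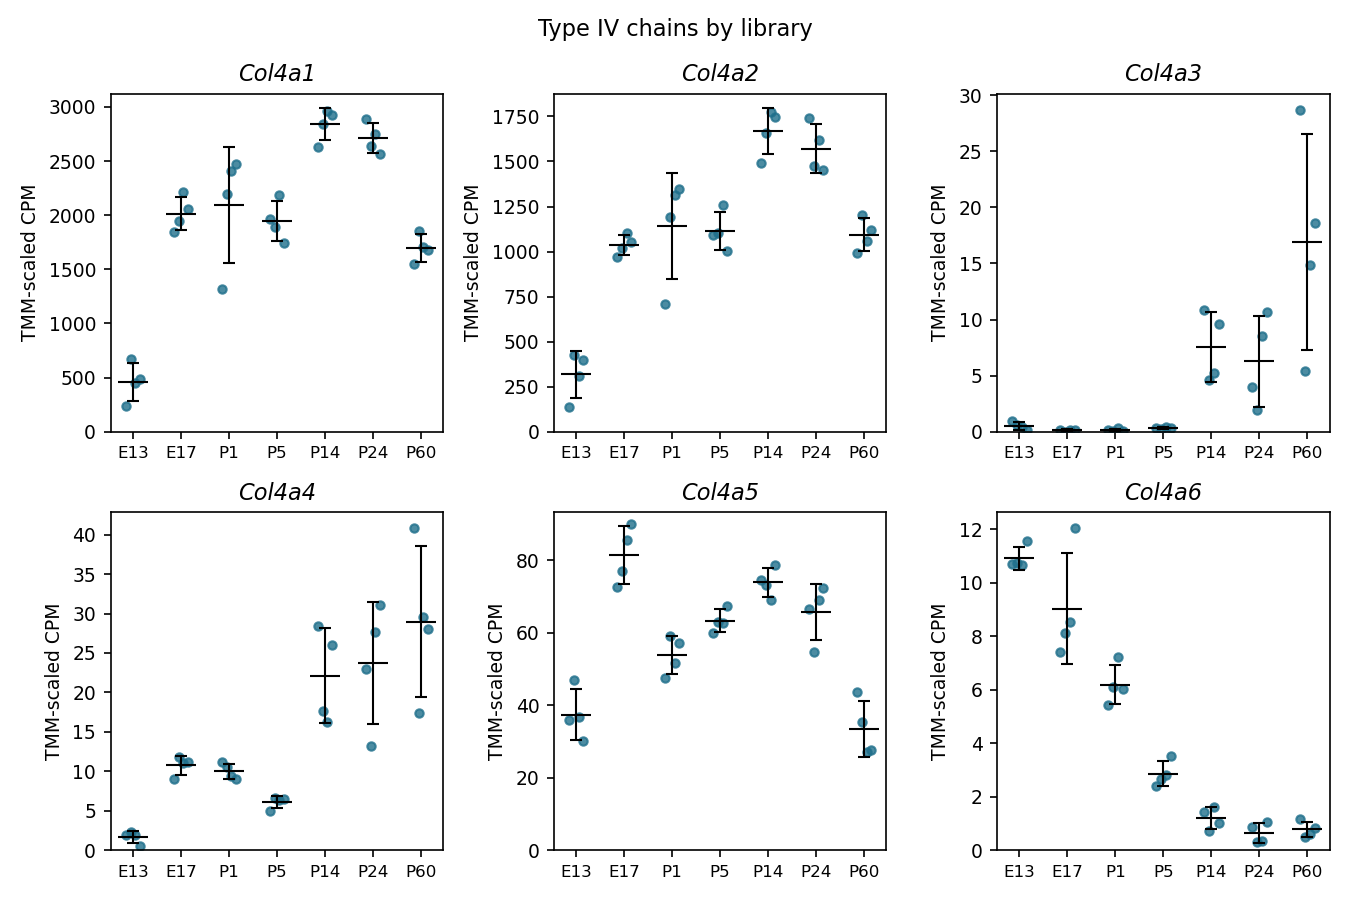
TMM-scaled CPM of the 6 type IV chains in each of the 28 libraries (points) by stage, with the mean of 4 libraries and its SD, on linear axes from 0 that differ between panels. Col4a3 and Col4a4 are higher in every P14 library than in any P5 library, and the mean of Col4a6 is highest at E13.

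Type VI collagen forms beaded filaments near cell surfaces from Col6a1, Col6a2 and a further, longer chain. Col6a1 (chr10:76708792-76726168, minus strand) read 87.0, 239, 145 and 161 CPM at E13, 410.4, 348, 386 and 331 CPM at E17 and 378, 447, 559.5 and 587 CPM at P1. It peaked at P5 with 784, 707, 804 and 595 CPM and then read 439, 451, 396 and 576 CPM at P14. At P24 it read 533, 259.8, 605 and 656 CPM and at P60 273, 206, 171 and 213 CPM. Replicate 2 of P24, at 259.8 CPM, lay below replicate 1 of P60, so the groups overlapped although the fall passed (log2 fold change -1.25 ± 0.24, edgeR adjusted p = 5.69e-04). Col6a2 fell alongside (log2 fold change -1.53 ± 0.28, edgeR adjusted p = 2.51e-04). Col6a3, the usual longer chain, was highest at E17 with 718 ± 65.7 CPM and fell from 426 ± 164 to 134 ± 27.0 CPM between P24 and P60 (log2 fold change -1.67 ± 0.25, edgeR adjusted p = 2.22e-05).

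The alternative longer chains Col6a4, Col6a5 and Col6a6 lie side by side on chromosome 9 and had unlike courses. Col6a5 was at most 1.57 CPM in any library up to P1, 5.97 ± 1.62 CPM at P5 (log2 fold change 2.47 ± 0.67, edgeR adjusted p = 0.0093, a call lost with limma-voom) and 71.7 ± 50.3 CPM at P14 (log2 fold change 3.58 ± 0.60, edgeR adjusted p = 4.34e-05). Its libraries then spread widely, at 108, 27.8, 28.9 and 122 CPM at P14, 68.7, 10.4, 117 and 140.4 CPM at P24 and 108, 16.98, 27.4 and 64.9 CPM at P60, all above those of P1 (log2 fold change of P60 against P1 5.65 ± 0.70, edgeR adjusted p = 8.57e-08). The 4 libraries of P24 stood in the same order for Col6a5, Col4a3 and Col4a4, and replicate 2 was the lowest of P24 and of P60 for all 3 chains. Of the 4 perineurial markers, Cldn1, a tight junction gene, had that order at P24 too, with 111, 46.6, 47.3 and 80.5 CPM at P14, 129, 37.71, 151 and 188 CPM at P24 and 234, 57.1, 158 and 198 CPM at P60. So did Slc2a1, a glucose transporter, at P24 (169, 97.0, 183 and 190.4 CPM) and the tendon marker Fmod, a fibril-binding proteoglycan (25.7, 6.80, 36.4 and 41.7 CPM). Of the other tendon markers, Mkx (0.315, 0.418, 0.593 and 0.865 CPM) and Tnmd (0.552, 0.157, 0.889 and 0.564 CPM) had other orders. Scx read at most 0.0788 CPM at P24. Itgb4, an integrin subunit, had another order (476, 383, 426 and 407 CPM), as did Lypd2 (11.5, 2.51, 15.8 and 14.1 CPM), although replicate 2 was the lowest for both. These libraries and genes were singled out after their values were seen. All 4 perineurial markers (Itgb4, Slc2a1, Cldn1 and Lypd2) were detected, with sums of 173 to 219 CPM at P5, 456 to 555 CPM at P14, 520 to 799 CPM at P24 and 994 to 1400 CPM at P60, and the 4 epineurial markers summed to 14.6 to 36.9 CPM at P5, 76.0 to 113 CPM at P14, 84.7 to 177 CPM at P24 and 127 to 147 CPM at P60. P24 replicate 2 was the lowest of its stage for each of the 4 epineurial markers as well, for example Dpt, a collagen-binding matrix protein (32.2, 11.8, 53.4 and 44.4 CPM). Their part in the rise of Col6a5, Col4a3 and Col4a4 was not tested.

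Col6a6 (chr9:105687809-105828160, minus strand) read 9.94, 19.0, 9.42 and 5.16 CPM at E13, 23.2, 17.3, 9.54 and 9.55 CPM at E17 and 0.984, 1.37, 7.0004 and 0.962 CPM at P1. Replicate 3 of P1 lay apart from the other P1 libraries, and all were below those of E17 (log2 fold change -2.53 ± 0.60, edgeR adjusted p = 0.0018), with a log2 fold change of -3.74 without P1 replicate 3. It read 4.04, 8.71, 13.86 and 7.82 CPM at P5 (log2 fold change 1.74 ± 0.59, edgeR adjusted p = 0.039), a rise that was lost without P1 replicate 1, 2 or 4 or P5 replicate 2, 3 or 4 and was 2.96 without P1 replicate 3. The call was also lost with library size alone as the scale, with no filter on low counts and with the compared stages only. The libraries of P1 and P5 overlapped. Col6a6 read 8.84, 3.33, 2.41 and 6.42 CPM at P14, 2.21, 1.15, 7.56 and 5.94 CPM at P24 and 0.219, 0.363, 0.249 and 0.440 CPM at P60. Col6a4 had at most 0.856 CPM in a library.

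Fibril-associated chains (FACIT), which sit on the surface of fibrils without forming them, mostly declined after birth. Between P1 and P60, 6 of the 9 fell (15.2% of all genes) and 0 rose by edgeR's test (20.3%), with a median log2 change of -1.94. Col14a1 (chr15:55307750-55520803, plus strand), the most abundant of them per kilobase, read 178, 262, 144 and 127 CPM at E13 and 945, 957, 996 and 962 CPM at E17 (log2 fold change 2.44 ± 0.15, edgeR adjusted p = 2.05e-13). It held at 971, 827, 946 and 932 CPM at P1, 783, 758, 822 and 790.2 CPM at P5, 795, 761, 733 and 781 CPM at P14 and 695, 736, 713 and 687 CPM at P24. The P60 libraries, at 246, 294, 196 and 224 CPM, were all far below (log2 fold change -1.56 ± 0.15, edgeR adjusted p = 1.84e-08). Col12a1, its close relative, peaked at P5 with 391 ± 27.6 CPM and was 92.9 ± 8.32 CPM at P60 (log2 fold change of P60 against P1 -1.56 ± 0.22, edgeR adjusted p = 6.87e-07). Col16a1 showed no 2-fold change after E17, with 159 ± 54.5 CPM at P1 and 129 ± 3.90 CPM at P60.

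The 3 chains of type IX collagen, which coats type II fibrils in cartilage, did not move as a unit. Col9a1 and Col9a3 fell between E17 and P1 (log2 fold change -1.20 ± 0.26, edgeR adjusted p = 7.87e-04, and log2 fold change -1.55 ± 0.22, edgeR adjusted p = 3.14e-06), while Col9a2 was 48.8 ± 6.41 CPM at E17 and 55.9 ± 21.4 CPM at P1. Col9a1 fell again from P5 to P14 (log2 fold change -1.54 ± 0.27, edgeR adjusted p = 8.54e-05). By P60 it was at 1.55 ± 1.12 CPM and Col9a3 at 9.42 ± 0.894 CPM (log2 fold change of P60 against P1 -4.00 ± 0.32, edgeR adjusted p = 2.46e-11, and log2 fold change of P60 against P1 -2.09 ± 0.23, edgeR adjusted p = 1.05e-08). Col9a3 shares 234 exon bases with Tcfl5 on the opposite strand.

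Col19a1 (chr1:24261890-24587472, minus strand), a chain found in muscle and brain basement membrane zones, had the largest fall after birth. It read 5.66, 8.52, 1.99 and 2.42 CPM at E13, 6.71, 5.81, 7.02 and 6.97 CPM at E17 and 10.02, 11.99, 10.4 and 8.87 CPM at P1. At P5 it read 4.79, 4.76, 4.28 and 5.40 CPM, below every P1 library (log2 fold change -1.10 ± 0.30, edgeR adjusted p = 0.0096). It read 0.767, 0.735, 1.06 and 1.44 CPM at P14 and 0.473, 0.262, 0.593 and 0.414 CPM at P24, and at P60 its libraries held 1, 0, 2 and 1 counts. With 1135 counts in the P1 libraries and 4 in those of P60, the P1 level was 152 times that of P60, with an exact 95% interval of 59.2 to 558 that covers counting error only (log2 fold change of P60 against P1 -7.15 ± 0.51, edgeR adjusted p = 2.69e-12). Col20a1 and Col22a1 were highest at E13. Col20a1 (chr2:180986535-181018363, plus strand) read 17.1, 83.1, 62.4 and 61.4 CPM at E13 and 6.93, 5.81, 4.66 and 6.66 CPM at E17 (log2 fold change -3.22 ± 0.30, edgeR adjusted p = 7.16e-10), with the lowest E13 value in replicate 1. Its later libraries read 2.28 to 5.15 CPM. Of its exon bases, 79 are shared with BX649560.1 on the same strand, which had 6077 counts where Col20a1 had 7521. Col22a1, a chain of the myotendinous junction, went from 20.7 ± 4.33 to 3.25 ± 0.694 CPM between E13 and E17 (log2 fold change -2.67 ± 0.25, edgeR adjusted p = 7.31e-10). The 6 skeletal muscle markers summed to 27.2 to 578 CPM at E13 and 6.55 to 24.1 CPM at E17, and the 6 markers of neuronal cell bodies to 743 to 1550 CPM at E13 and 12.5 to 18.4 CPM at E17. The 5 macrophage markers summed to 338 to 437 CPM at E13 and 96.3 to 109 CPM at E17. The 4 tendon markers summed to 33.5 to 51.9 CPM at E13 and 2.02 to 6.66 CPM at E17. The part of these cells in the levels at E13 was not tested.

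The multiplexins, proteoglycan collagens of basement membrane zones, peaked at P14 (Col15a1) and E17 (Col18a1). Col15a1 (chr4:47208161-47313167, plus strand) read 21.9, 45.4, 27.7 and 23.7 CPM at E13 and 419, 424, 455 and 464 CPM at E17, all above E13 (log2 fold change 3.89 ± 0.20, edgeR adjusted p = 2.24e-15). It read 317, 465, 414 and 485 CPM at P1, 749, 735, 759 and 658 CPM at P5 and 977, 1130.0, 1053 and 1272 CPM at P14. These steps were under 2-fold, but the P5 and P14 libraries were above all of the stage before. It then read 986, 710.5, 998 and 1120.4 CPM at P24 and 337, 384, 281 and 323 CPM at P60, again with no overlap (log2 fold change -1.53 ± 0.18, edgeR adjusted p = 4.83e-07). Col18a1, the source of endostatin, was 458 ± 247 CPM at E13, where replicate 1 read 115 CPM and the others 453 to 676 CPM, and 125 ± 7.70 CPM at P60 (log2 fold change of P60 against P1 -1.44 ± 0.31, edgeR adjusted p = 2.23e-04).

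Col7a1 (chr9:108953586-108984875, plus strand), the anchoring fibril chain that ties skin epithelium to the dermis, rose around birth. It read 1.92, 6.14, 2.96 and 2.74 CPM at E13, 4.07, 2.905, 4.00 and 4.27 CPM at E17 and 7.22, 13.8, 16.8 and 16.9 CPM at P1, where every library was above those of E17 (log2 fold change 1.85 ± 0.30, edgeR adjusted p = 3.12e-05). It read 19.4, 25.9, 24.8 and 17.3 CPM at P5, 13.91, 22.3, 24.6 and 16.7 CPM at P14, 19.9, 15.1, 9.93 and 10.4 CPM at P24 and 19.0, 24.9, 27.0 and 20.2 CPM at P60. All P5 libraries were above those of P1 by less than 2-fold on average, and the later stages overlapped. The 5 epidermal markers summed to 3.26 to 6.22 CPM at E17 and 3.03 to 3.90 CPM at P1, mostly from Krt10, with Krt5 at 0.0137 CPM at E17 and 0 CPM at P1, and their part in the level of Col7a1 was not tested.

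The short-chain chains Col8a1 and Col8a2, which form the hexagonal lattice of type VIII collagen, went opposite ways. Col8a1 (chr16:57624258-57754737, minus strand) read 32.8, 14.9, 13.04 and 9.31 CPM at E13 and 191, 203, 202 and 210.5 CPM at E17 (log2 fold change 3.52 ± 0.36, edgeR adjusted p = 2.47e-09). It read 189, 173, 183 and 169 CPM at P1, 138, 146, 151 and 149 CPM at P5 and 88.0, 78.6, 50.9 and 109 CPM at P14. It ended at 99.6, 50.5, 151 and 181 CPM at P24 and 98.2, 39.1, 60.1 and 89.2 CPM at P60, where replicate 2 was the lowest at both stages. Col8a2 was lower at E17 than at E13 (log2 fold change -1.35 ± 0.17, edgeR adjusted p = 1.92e-07) and higher at P60 than at P1, with 15.02 ± 3.52 and 73.6 ± 3.30 CPM (log2 fold change of P60 against P1 2.29 ± 0.18, edgeR adjusted p = 1.30e-11). Col10a1, the chain of hypertrophic cartilage, did not exceed 1.68 CPM in a library.

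Among the 4 transmembrane chains, whose collagen domains stand outside the cell, 2 rose (20.3% of all genes) and 2 fell (15.2%) from P1 to P60. Col23a1 (chr11:51289920-51583918, plus strand) fell before birth and rose after it. It read 50.0, 60.7, 61.7 and 56.3 CPM at E13, 9.02, 6.81, 5.82 and 9.05 CPM at E17 and 10.1, 13.2, 9.73 and 14.6 CPM at P1. The first step was a fall with no overlap (log2 fold change -2.90 ± 0.14, edgeR adjusted p = 1.89e-15). It rose to 113, 105, 120.2 and 117 CPM at P5 (log2 fold change 3.26 ± 0.14, edgeR adjusted p = 1.41e-14) and to 386, 411, 426 and 374 CPM at P14 (log2 fold change 1.81 ± 0.13, edgeR adjusted p = 6.63e-11). At P24 it read 487, 489, 433 and 400.5 CPM and at P60 512, 647, 542 and 566 CPM, and the change from P1 to P60 had the smallest adjusted p of the family (log2 fold change of P60 against P1 5.57 ± 0.16, edgeR adjusted p = 1.87e-20). Col25a1, known from neurons, fell in 3 steps in a row, from 24.6 ± 13.51 CPM at E13 to 6.62 ± 0.678 at E17, 1.21 ± 0.164 at P1 and 0.495 ± 0.0426 at P5 (log2 fold change -1.89 ± 0.28, edgeR adjusted p = 1.69e-06 for the first step and log2 fold change -2.44 ± 0.31, edgeR adjusted p = 5.24e-07 for the second). Col13a1, a chain of the neuromuscular junction, and Col17a1, a hemidesmosome chain, account for the other fall and rise from P1 to P60, and had at most 4.12 and 1.82 CPM in a library.

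Of the chains outside these classes, Col28a1 (chr6:7997808-8192617, minus strand), a chain described in peripheral nerve around non-myelinating glia and at nodes, was higher at E17 than at E13 and rose again to P1. It read 29.3, 14.4, 5.81 and 4.05 CPM at E13, 109, 99.6, 133 and 118 CPM at E17 and 423, 391.7, 349.7 and 378 CPM at P1, with no overlap at either step (log2 fold change 3.09 ± 0.34, edgeR adjusted p = 9.06e-09, and log2 fold change 1.75 ± 0.31, edgeR adjusted p = 9.77e-05). It read 459.7, 448, 458 and 455 CPM at P5 and 509.7, 479, 518 and 528 CPM at P14, each stage with all libraries above those of the stage before, by less than 2-fold. It read 323, 367, 307 and 315 CPM at P24 and 231, 186, 169.9 and 157 CPM at P60, and was lower at P60 than at P1 (log2 fold change of P60 against P1 -1.05 ± 0.31, edgeR adjusted p = 0.0045), a call that was lost without P1 replicate 1 or P60 replicate 4. Col26a1 was 169 ± 21.2 CPM at P14 and fell from P24 to P60 (log2 fold change -1.71 ± 0.23, edgeR adjusted p = 4.29e-06).

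Message ratios between chains that assemble together varied between stages, but no single step passed the test after adjustment. For 7 pairs and the 6 adjacent steps, 42 differences of the log2 ratio were tested, each by an exact permutation of the 4 libraries of either stage (two-sided), which cannot give a p below 0.029. In 24 of them the stages did not overlap and the p was this smallest value, which after Benjamini-Hochberg adjustment over the 42 was 0.050, so that 0 of 42 fell under 0.05. The type I ratio Col1a1 to Col1a2, on union exons, was 0.828 ± 0.192 at E13, 1.35 ± 0.0777 at E17, 1.34 ± 0.124 at P5, 0.979 ± 0.0524 at P14 and 0.868 ± 0.0384 at P60. These ratios rest on annotated lengths, since the longest transcripts gave 0.639 at P5 and 0.414 at P60 for the same counts, and only their differences between stages carry over. Col4a2 to Col4a1 went from 0.581 ± 0.0141 at E17 to 0.727 ± 0.0209 at P60. Col6a3 to Col6a1 moved from 0.713 ± 0.0158 at E17 to 0.278 ± 0.0160 at P5 and 0.228 ± 0.0198 at P60. Col3a1 to Col1a1, partners in 1 fibril, stood at 1.34 ± 0.0889 at P5, 1.99 ± 0.169 at P14 and 0.828 ± 0.200 at P60. Col8a2 to Col8a1 went from 5.13 ± 2.71 at E13 to 0.137 ± 0.0447 at E17 and 2.06 ± 0.976 at P60.

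Genes that modify, export, cut and bind collagens are given beside the shares of all genes called from P1 to P60, 20.3% higher and 15.2% lower. Among the hydroxylases and their partners, which stabilize the helix and prepare cross-links, 8 of 15 fell and 2 rose. Plod2, which hydroxylates telopeptide lysines, fell (log2 fold change -2.33 ± 0.21, edgeR adjusted p = 2.37e-10), as did P3h4, a partner of lysyl hydroxylase (log2 fold change -1.80 ± 0.20, edgeR adjusted p = 1.27e-08), and P3h2, a prolyl 3-hydroxylase that acts on type IV collagen, rose (log2 fold change 3.03 ± 0.20, edgeR adjusted p = 2.63e-13). Of the 7 chaperone and export genes 3 fell and none rose, Fkbp10 (log2 fold change -2.74 ± 0.22, edgeR adjusted p = 3.18e-11) and Creb3l1 (log2 fold change -2.01 ± 0.22, edgeR adjusted p = 6.47e-09) among them. Of the 8 procollagen proteinases and their enhancers 2 rose and 2 fell, with Tll1, which can remove the C-terminal propeptide, up (log2 fold change 1.87 ± 0.26, edgeR adjusted p = 7.21e-07) and its relative Tll2 down (log2 fold change -4.93 ± 0.24, edgeR adjusted p = 5.36e-16). Pcolce2, an enhancer of propeptide removal that is also on the epineurial list, rose (log2 fold change 3.39 ± 0.50, edgeR adjusted p = 1.35e-06). Of the 6 cross-linking enzymes 2 rose and 2 fell. Lox, which oxidizes lysines of fibrillar collagen, went from 49.4 ± 12.9 CPM at P1 to 1213 ± 31.4 CPM at P60 (log2 fold change 4.62 ± 0.28, edgeR adjusted p = 1.02e-13), while Loxl2 and Pxdn, which cross-link type IV collagen, fell (log2 fold change -2.23 ± 0.19, edgeR adjusted p = 1.36e-10, and log2 fold change -1.85 ± 0.20, edgeR adjusted p = 7.25e-09). Of the 10 collagen receptors 2 rose and 2 fell. Ddr1, a receptor tyrosine kinase for collagen, rose (log2 fold change 2.31 ± 0.27, edgeR adjusted p = 4.04e-08) and the integrin subunit Itga2 fell (log2 fold change -1.97 ± 0.27, edgeR adjusted p = 3.99e-07). Lair1, an inhibitory receptor of immune cells, fell (log2 fold change -1.57 ± 0.21, edgeR adjusted p = 2.62e-07) and the integrin subunit Itga11 rose (log2 fold change 3.34 ± 0.41, edgeR adjusted p = 5.99e-08). Among the 11 genes of breakdown and uptake 3 rose and 2 fell, with the inhibitor Timp3 up (log2 fold change 1.39 ± 0.12, edgeR adjusted p = 1.62e-10) and the membrane collagenase Mmp14 down (log2 fold change -2.53 ± 0.21, edgeR adjusted p = 3.31e-11). The collagenase Mmp8 fell as well (log2 fold change -4.00 ± 0.45, edgeR adjusted p = 1.29e-08).

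From E17 to P1, where 6.31% of all genes rose and 5.41% fell, 3 of the 15 hydroxylases and partners fell, among them P3h2 (log2 fold change -1.93 ± 0.19, edgeR adjusted p = 6.49e-09) and P4ha2, a catalytic subunit of prolyl 4-hydroxylase (log2 fold change -1.85 ± 0.18, edgeR adjusted p = 6.01e-09). Of the 6 cross-linking enzymes 2 fell, Loxl4 (log2 fold change -3.04 ± 0.32, edgeR adjusted p = 1.96e-08) and Loxl2 (log2 fold change -1.14 ± 0.19, edgeR adjusted p = 3.12e-05). Tll2, which fell by P60, rose at this step (log2 fold change 2.50 ± 0.19, edgeR adjusted p = 5.88e-11), as did the procollagen N-proteinase Adamts14 (log2 fold change 1.00 ± 0.33, edgeR adjusted p = 0.022) and Mmp8 (log2 fold change 3.03 ± 0.40, edgeR adjusted p = 1.24e-06), and Ddr1, which rose by P60, fell (log2 fold change -1.05 ± 0.27, edgeR adjusted p = 0.0034).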

How the data were processed

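Each sample was 1 polyadenylated, stranded TruSeq library of mouse nerve RNA. Per the labels, the authors demultiplexed reads with bcl2fastq, aligned them with STAR 2.6.1c and counted them per gene with featureCounts. The deposited values are raw read counts for 41605 genes in 28 libraries. The strand and multiple-mapping settings of the counting are not given in the sources used here, so reads shared by overlapping genes cannot be assigned. The submitters' processing notes name the build GRCm38.p5 and the study's methods name a human build, but the gene identifiers are mouse. Of these, 41519 matched the GRCm38 annotation used for names, lengths and coordinates.

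Counts were fitted with edgeR 4.0.16 (quasi-likelihood, TMM scaling, stage as the only term, all 28 libraries), which left 17700 genes after the filter on low counts. A gene was called at a Benjamini-Hochberg adjusted p under 0.05 over all genes tested and a change of at least 2-fold. The 6 adjacent stages, P60 against P1 and all stages together were compared. The edgeR fit of P5 against P1 was tested on simulated counts, and the other fits were not. DESeq2 1.42.0 and limma 3.58.1 served as alternatives, with other scalings and filters, a GC offset and single libraries left out. Levels of different chains were divided by union exon length or by the longest transcript. Gly-X-Y runs of at least 5 triplets were found in translated coding sequences of the annotation, in place of a protein table. Promoter sequences came from RefSeq, which had an entry for 35 of the 44 chains.

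Statistics are given for up to 3 largest rises and falls per comparison among called chains of at least 5 CPM, and values of every library for the chain with the highest level per class and the largest rise or fall of a comparison. Other chains and values were added to describe each class and were chosen after their values were seen. The members and lists were chosen with earlier results of these data known. Total counts set the precision, and intervals from counts cover counting error only.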

Additional observations from a re-analysis of the deposited data

Results flagged for a closer look

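Of 126 sets of 4 libraries examined for a single library far from the others, 3 were flagged, where chance alone gives about 6.3. Col6a6 read 7.0 CPM in P1 replicate 3 and 0.962 to 1.37 CPM in the other P1 libraries. Col4a6 read 11.6 CPM in E13 replicate 4, against 10.7 CPM in each of the others. The share of collagen chains in length-scaled counts was 0.643% in P24 replicate 2 and 0.960 to 1.02% in the other P24 libraries.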

How the results depend on the processing

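With no fold minimum, 6 chains rose and 5 fell from P1 to P5, 9 rose and 11 fell from P5 to P14, and 2 rose and 1 fell from P14 to P24. With library size alone as the scale, 6 fell from P1 to P5, and with no filter on low counts 5 did. From P14 to P24, 2 chains rose under each of library size alone, DESeq2 size factors, a minimum of 1 CPM in 4 libraries, limma-voom, the DESeq2 Wald test, the fit without E13, the GC offset, the replicate block and the compared stages only; the added chain was Col2a1. Over the same interval 1 fell with limma-voom (Col22a1), without E13 (Col19a1) and with the GC offset (Col19a1). From P24 to P60, 1 rose with no filter and with the compared stages only, where Col4a3 lost its call. The causes were not tested. On the longest transcript the collagen share was 1.99% at E17, 1.64% at P1, 1.37% at P5 and 1.15% at P14; without mitochondrial and haemoglobin genes it was 1.86% at E17 and 0.483% at P60. Leaving out single libraries gave 2 to 4 rises and 3 to 5 falls from P1 to P5, 1 to 2 rises and 0 to 1 falls from P14 to P24, and 1 to 2 rises from P24 to P60. Replicate numbers did not pair the libraries (correlations -0.06 to 0.29); with the replicate block 43 chains passed along the timeline, and 8 rose and 25 fell from P1 to P60. With E13 replicates 2 and 3 only, 19 chains were higher and 9 lower at E17. Of 627 refits of 33 named changes, 610 kept their direction and call, 17 lost the call and 0 reversed. Chains at a few counts per library are limited by depth.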
